A study of Mus musculus with 2 samples.

Results

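The H19 and Igf2 imprinted domain of mouse chromosome 7 was taken as the span from 50 kb beyond the outermost ends of 4 genes, Mrpl23, H19, Igf2 and Ins2, in GENCODE annotation M21 (mm10, chr7:142482686-142793381, 310.7 kb). Of the 73465 CTCF peaks in the optimal list, 25 had their summit in this span. That list keeps peaks past a threshold on the irreproducible discovery rate (IDR), which weighs how well peak ranks repeat between replicates. The span held 82 of the 300000 summits of the list called on pooled reads. It held 82 of 300000 in replicate 1 and 73 of 300000 in replicate 2. Both samples were sequenced chromatin immunoprecipitations of CTCF, a zinc-finger DNA-binding protein, from the intestine of B6NCrl mice at postnatal day 0. They formed 1 group, labelled as biological replicates 1 and 2. Each was made from pulverised intestines pooled over several dissections, and sex was not collected. The labels give both replicates the same biosample identifier, so their spread may be technical. No other condition was measured, and no test between conditions was made. The mice are of an inbred strain and the lists carry no allele, so maternal and paternal binding cannot be told apart, nor can cell types of the gut wall.

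The domain is a textbook case of imprinting, in which a gene is expressed from the allele of a given parent. H19, a long noncoding RNA, is expressed from the maternal allele, and Igf2, a fetal growth factor of the insulin family, from the paternal allele. The imprinting control region between them, just upstream of H19, is methylated on the paternal allele and binds CTCF on the unmethylated maternal allele. There CTCF acts as an insulator that keeps Igf2 from the enhancers beyond H19, which serve endodermal tissues such as liver. Ins2 encodes preproinsulin and is imprinted in the yolk sac. Mrpl23 encodes a protein of the large mitochondrial ribosomal subunit and marks the flank of the domain. CTCF binding is blocked by methylation at some CpG dinucleotides within its site.

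The control region held 4 CTCF summits in the optimal list, and the same 4 in the conservative, pooled and both replicate lists. The control region was taken as 2 to 4 kb upstream of the H19 start (142578143, minus strand), so chr7:142580143-142582143. Its summits lay 2.17, 2.62, 3.67 and 3.87 kb upstream. Their best CTCF sites are shown first, because the later results turn on them. Each is given 5′ to 3′ on the minus strand with 121 bases, and capitals mark the 19-base best match to a CTCF matrix trained without chromosome 7. The genomic spans are chr7:142580256-142580376, chr7:142580711-142580831, chr7:142581737-142581857 and chr7:142581981-142582101, in the order of the lines.
Site at 2.17 kb: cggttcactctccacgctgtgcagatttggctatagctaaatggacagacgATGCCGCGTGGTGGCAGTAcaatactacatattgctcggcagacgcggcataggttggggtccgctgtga
Site at 2.62 kb: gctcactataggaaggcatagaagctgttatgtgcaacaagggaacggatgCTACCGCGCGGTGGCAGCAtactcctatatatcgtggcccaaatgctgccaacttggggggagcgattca
Site at 3.67 kb: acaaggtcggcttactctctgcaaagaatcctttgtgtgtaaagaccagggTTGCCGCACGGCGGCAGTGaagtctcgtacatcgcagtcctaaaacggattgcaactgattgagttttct
Site at 3.87 kb: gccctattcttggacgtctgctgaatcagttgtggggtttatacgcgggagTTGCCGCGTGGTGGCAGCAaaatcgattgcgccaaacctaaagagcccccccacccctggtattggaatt

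The 4 sites were alike and all lay on the minus strand. They shared the same base at 12 of 19 positions. Each was picked as the best match to the same matrix, which favours certain bases at several positions. Part of this likeness thus follows from the choice, and no share for other sites was computed. The pair at 2.17 and 3.87 kb was the closest, with 17 of 19 bases identical, and the pair at 2.62 and 3.67 kb the most distant, with 13. The summits lay at most 32 bases from the centre of their site.

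CpG dinucleotides were dense in these sites. The sites at 2.17, 2.62, 3.67 and 3.87 kb held 2, 3, 3 and 2 CpGs. In the rest of chromosome 7, 10.2% of 3492 called sites held 2 or more CpGs, and 40.2% held at least 1. Of the 20 called sites elsewhere in the domain, 3 held 2 or more. Over the whole domain 6 of 23 called sites held 2 or more, and 10 of 23 held at least 1. The 201 bases around the control region summits held 6 to 12 CpGs, against a median of 3 around the optimal summits of the rest of chromosome 7. Methylation was not measured in these data.

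These sites scored below the median of chromosome 7 on the general CTCF matrix. A site was called when its score reached 9.56 bits, the score that 5% of windows 1 kb away from training peaks reached. The sites at 2.17, 2.62 and 3.87 kb passed, with 10.2, 11.0 and 12.4 bits, and the site at 3.67 kb fell just under the threshold, with 9.36 bits. The median of called sites in the rest of chromosome 7 was 15.7 bits, a set that leaves out all scores under the threshold. Among the 4749 optimal peaks there, called or not, the sites at 2.17, 2.62, 3.67 and 3.87 kb stood at percentiles 29.1, 33.9, 25.8 and 41.1. Of the 4 control region summits 3 were thus called, beside 73.5% of the 4749 optimal peaks in the rest of chromosome 7 and 72.5% of the 68677 on the other chromosomes, which include the training peaks. At the score that 1% of the flanking windows reached, 0 of the 4 were called, beside 44.3% in the rest of chromosome 7. With a matrix built from the higher-scoring training sites only, 1 was called, the site at 3.87 kb, beside 68.3%.

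Shorter words were searched as well. The word GGNGGCAG, searched on both strands within 100 bases of the summit, was present at all 4, with a copy inside each matrix site. The summit at 3.87 kb had a further copy outside its site. It was found at 7 of the 25 domain summits and at 15.0% of the 73426 optimal peaks outside the domain. The word CGCGNGGNG was present at 3 of the 4, all but the summit at 3.67 kb, and at no other summit of the domain. It was found at 2.27% of optimal peaks outside the domain. The 2 words overlap within the matrix site. They were picked from knowledge of this control region, so their presence there is a description.

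The signals of the 4 control region summits fell into 3 alike and 1 lower. Peak signal is the authors' enrichment value for each peak, of unstated normalization, and it is used to rank peaks within a list. The summit at 2.62 kb (peak chr7:142580633-142580880) had an optimal signal of 221, a signal of 122 in replicate 1 and one of 96.0 in replicate 2. The summit at 3.67 kb (chr7:142581673-142581922) had 219 in the optimal list, 117 in replicate 1 and 102 in replicate 2. The summit at 2.17 kb (chr7:142580190-142580431) had 210.2 in the optimal list, 98.9 in replicate 1 and 108 in replicate 2. These 3 stood at the 74.9th, 74.6th and 73.7th percentile of the optimal list, and their order differed between the replicates. The summit at 3.87 kb (chr7:142581903-142582135) had 84.4 in the optimal list, 42.0 in replicate 1 and 43.2 in replicate 2. It was below the others in every list, at the 52.7th percentile, and had the highest matrix score of the 4. It stood 201 bases from the summit at 3.67 kb, and their optimal intervals overlapped.

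**Figure D1:**
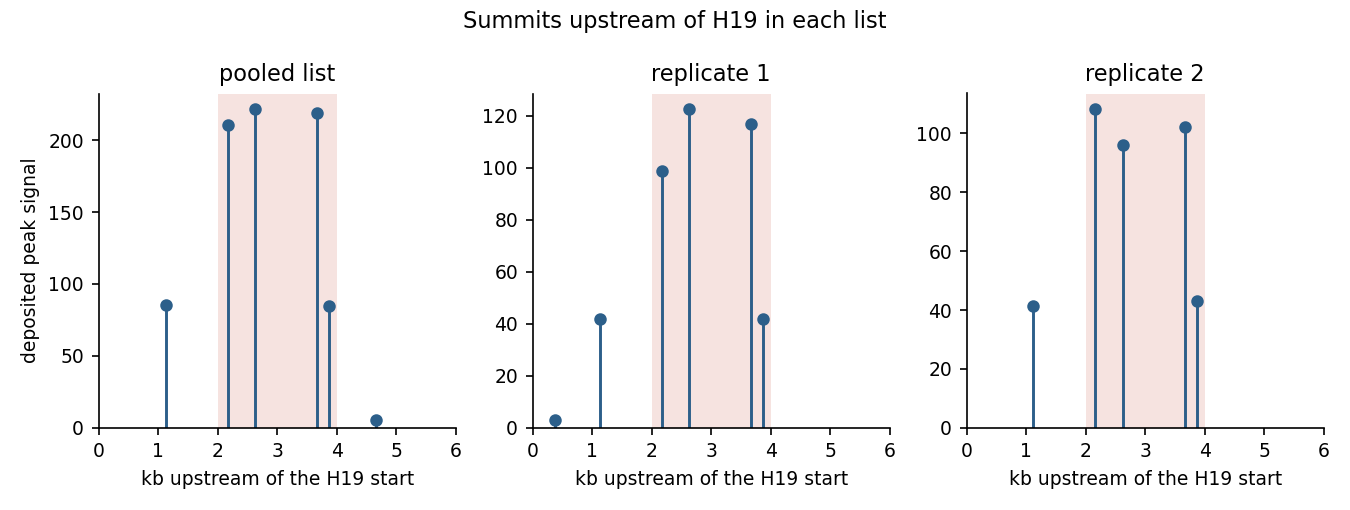
Deposited peak signal (vertical axis, own scale in each panel) of every summit within 6 kb upstream of the H19 start (horizontal axis, kb) in the pooled list and in replicates 1 and 2. The shaded band is the control region at 2 to 4 kb, where each list has the same 4 summits, and the summit at 3.87 kb is the lowest of the 4 in each.

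A further summit lay between the control region and H19. It stood 1.13 kb upstream of the H19 start (chr7:142579159-142579340), with an optimal signal of 85.6, 41.7 in replicate 1 and 41.3 in replicate 2. Its site scored 14.2 bits on the minus strand and held no CpG, unlike the 4 sites of the control region. The cluster of summits was tight: 4 of the 25 domain summits, all in the control region, had 3 or more other optimal summits within 2 kb. This was so for 0.776% of the 73451 optimal summits on chromosomes 1 to 19 and X. From the first to the last control region summit the distance was 1699 bases.

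No optimal summit lay in the H19 gene itself (ENSMUSG00000000031.16, chr7:142575529-142578143). The gene body held 1 weak pooled summit, of signal 16.4. No optimal summit lay 5 to 12 kb beyond the H19 start on the far side of the gene, the stretch that holds the endodermal enhancers. The pooled list had 4 summits there, replicate 1 had 3 and replicate 2 had 5. The strongest was a pooled peak at chr7:142568996-142569305, 8.99 kb from the H19 start, with a signal of 20.8. Its pooled rank was 73387, so it stood within the strongest 73465 pooled peaks but was not in the optimal list. In replicate 1 it had a signal of 17.8 and rank 54163, while the best rank of any replicate 2 summit in that stretch was 86958.

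Over the domain as a whole, CTCF summits were dense and mostly of middle to high signal. There were 80.5 optimal summits per Mb, against 33.7 on all of chromosome 7 and 28.7 over chromosomes 1 to 19 and X. When these chromosomes were cut into 8467 consecutive windows of the domain's length, 6.78% held 25 or more summits. The 25 signals ran from 16.8 to 414 with a median of 210.2, against 76.0 for the whole optimal list. Their median percentile was 73.7. Of the 25, 23 stood above the list median, 10 above its 75th percentile and 1 above its 90th. The highest deposited −log10 q value, 5.16, was reached by 24 of the 25, beside 91.5% of all optimal peaks, so it hardly separates peaks.

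**Figure D2:**
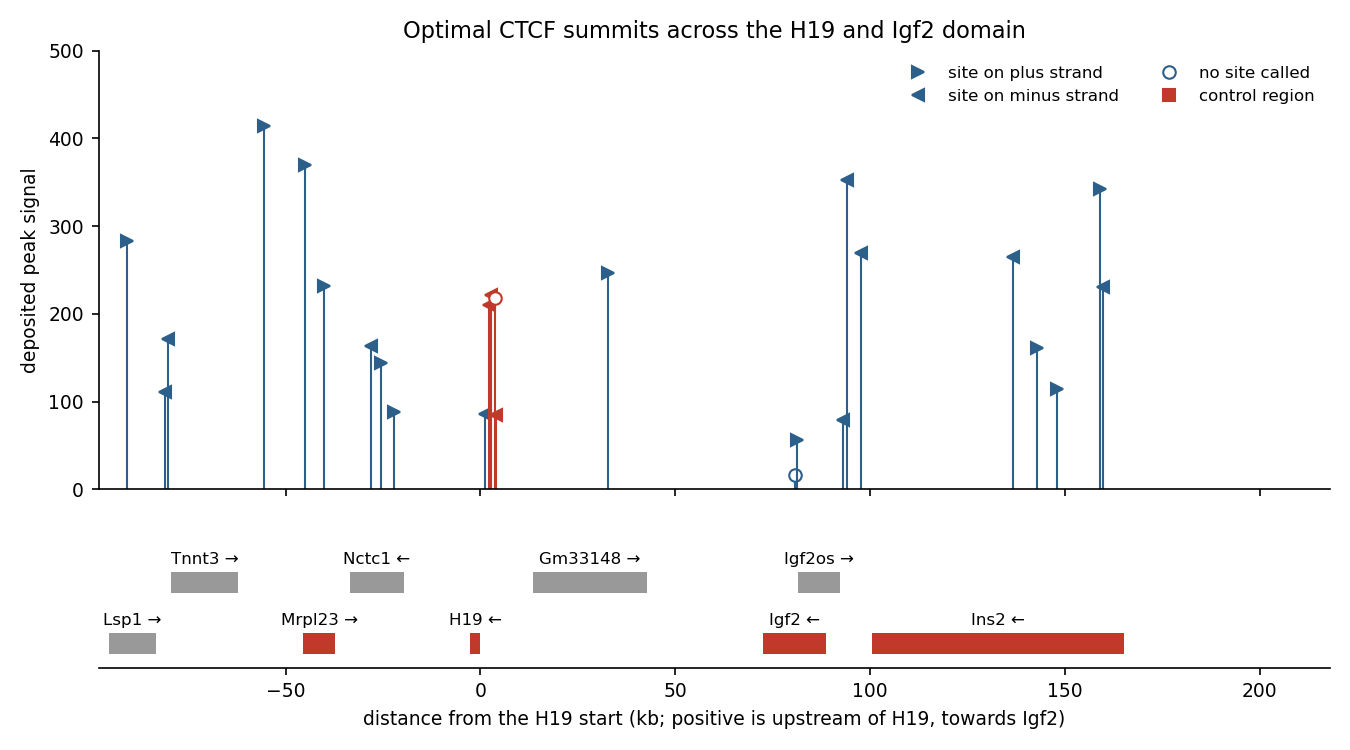
Deposited signal of the 25 optimal summits (vertical axis) by distance from the H19 start (horizontal axis, kb), with gene bodies below, members in red. Triangles point along the strand of the called site, open circles have no called site, and red stems are the control region; the highest signal, 414, is 55.6 kb from the H19 start on the Tnnt3 side.

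The strongest domain summits lay outside the control region. Sites are shown for the 3 with the highest signal and for the summit with the highest matrix score, to set beside those of the control region. They are given 5′ to 3′ on their own strand, with the matrix site in capitals and 5 bases on each side.
Beyond Tnnt3, plus strand, chr7:142522555-142522583: ctgacCAGACGCCAGGGGGTGCTCaggtg
Mrpl23 start, plus strand, chr7:142533092-142533120: gcctcCGGAAGCGAGGGGGCGCTGtgcca
Upstream of Igf2, minus strand, chr7:142672317-142672345: ttaaaTGACCACCAGATGTCAAGCtcgag
Between Igf2 and Ins2, minus strand, chr7:142675849-142675877: ggaagCGTCCAGCAGAGGTCACCAaaacc

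Mrpl23 (ENSMUSG00000037772.13, chr7:142532686-142540747, plus strand) carried a promoter summit and an intronic summit. The promoter summit (chr7:142532994-142533273) lay 0.027 kb upstream of the nearest of its 7 annotated starts. Its signal was 369 in the optimal list, 188 in replicate 1 and 185 in replicate 2, at rank 7116 and rank 8404. Its window was the second richest in CpG of the domain, with 22 CpGs in 201 bases, but its site barely passed the threshold at 9.62 bits. It was not called with the matrix of higher-scoring sites. The intronic summit (chr7:142537985-142538233) had a signal of 232, 114 in replicate 1 and 119 in replicate 2, and a strong site of 18.0 bits. Both sites were on the plus strand.

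The flank below Mrpl23 held 4 summits. The one with the highest signal of all 25 lay in intergenic sequence beyond Tnnt3, the fast skeletal muscle troponin T gene, 55.6 kb from the H19 start. It had a signal of 414 (chr7:142522416-142522715), 209.8 in replicate 1 and 205 in replicate 2, at the 92.8th percentile. Within Prr33 and upstream of Tnnt3, 2 summits had signals of 171 and 111. In an exon of Lsp1, a leukocyte actin-binding protein gene, a summit had a signal of 283.

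Between Mrpl23 and H19, Nctc1, a noncoding transcript, covered 3 summits of middling signal. They lay 22.2, 25.5 and 28.0 kb from the H19 start, with optimal signals of 88.6, 144 and 163. The summit at 28.0 kb had 96.5 in replicate 1 and 67.3 in replicate 2, at ranks 20383 and 27185. The summit at 22.2 kb had 36.8 in replicate 1 and 50.3 in replicate 2. Replicate 1 thus ranked the summit at 28.0 kb higher than replicate 2 did, and the summit at 22.2 kb lower, at 37020 against 32068. With no summit from there to 1.13 kb upstream of H19, the gap around H19 was 23.4 kb long.

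Between the control region and Igf2 only a single optimal summit was found. It stood in an intron of the noncoding gene Gm33148, 32.6 kb upstream of the H19 start (chr7:142610630-142610887). Its signal was 247, with 120.1 in replicate 1 and 127 in replicate 2, and its site of 13.4 bits lay on the plus strand and held 2 CpGs. The gaps on its sides were 28.8 kb towards the control region and 48.0 kb towards Igf2. The gap towards Igf2 was the widest between neighbouring summits inside the domain. No optimal summit lay in the last 50 kb, beyond Ins2, where the pooled list had 1 of signal 6.60.

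Within Igf2 (ENSMUSG00000048583.16, chr7:142650766-142666816, minus strand) the 2 summits were the weakest of the domain. The first (chr7:142658634-142658943) had an optimal signal of 16.8, at the 2.99th percentile. It lay 15 bases downstream of a RefSeq Igf2 start and had no called site. The nearest summits of replicates 1 and 2 were 105 and 85 bases away, at ranks 80024 and 87801. Both ranks are outside the strongest 73465 of each list. The second (chr7:142659302-142659409) lay 0.122 kb downstream of a GENCODE Igf2 start, with a signal of 56.7, 31.7 in replicate 1 and 24.8 in replicate 2. Its window had 82.1% G and C and 31 CpGs, the most in the domain. Its called site, of 14.2 bits, was 72 bases from the summit, the farthest of all called sites in the domain. That site (chr7:142659430-142659448) lay outside the peak interval. When matches were sought only within 50 bases of the summit, 22 domain summits had a called site.

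Upstream of Igf2 the signals were higher. In the 11.8 kb between the Igf2 and Ins2 genes there were 3 summits. The strongest (chr7:142672188-142672465) lay 2.39 kb upstream of the start of Gm49394, a gene that overlaps Igf2, with a signal of 353, 165 in replicate 1 and 191 in replicate 2. Its ranks were 10221 and 7589, so replicate 2 placed it higher. The summit nearest to Ins2 (chr7:142675732-142675979) had a signal of 270.0, 133 in replicate 1 and 137 in replicate 2, and the best matrix score of the domain, 18.1 bits. A weaker summit (chr7:142671219-142671330) had 79.5, with 39.8 in replicate 1 and 37.8 in replicate 2. All 3 sites lay on the minus strand, as in the control region. They held 1 CpG or none.

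Ins2 carried no summit at its usual starts, but 5 summits lay under its longest annotated transcript. GENCODE gives Ins2 (ENSMUSG00000000215.11) a body of 64.7 kb (chr7:142678656-142743381) because of a transcript that begins far upstream of the insulin coding exons. The nearest summit to any Ins2 start was 3.67 kb away, between Ins2 and Igf2. The 5 summits in the body had optimal signals of 265, 161, 114, 343 and 230.3 in chromosome order. In replicate 1 these were 129, 79.1, 48.9, 168 and 109.8, and in replicate 2 they were 135, 80.8, 64.7, 173 and 119.9. The order of the 5 was the same in both replicates. The summit with a signal of 265 lay in an untranslated exon and the others in introns.

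The 5 sites under the long Ins2 transcript resembled each other. They are printed 5′ to 3′ on their own strand with 29 bases, because they share a word that was noticed after the sequences were read. Capitals mark that word.
Signal 265, minus strand, chr7:142714856-142714884: tgaattgaacagCAGAGGGAGACaaaggt
Signal 161, plus strand, chr7:142720920-142720948: cgagttgaacagCAGAGGGAGACagaggt
Signal 114, plus strand, chr7:142726199-142726227: tgagtcaaacagCAGAGGGAGACaaaggt
Signal 343, plus strand, chr7:142737118-142737146: tgaatcaaccacCAGAGGGAGACaaagac
Signal 230.3, minus strand, chr7:142737949-142737977: agaatcgaccacCAGAGGGAGACcaagac

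The shared word CAGAGGGAGAC, of 11 bases, was within 100 bases of all 5 summits and of no other domain summit. On either strand it was within 100 bases of 106 of 73426 optimal summits outside the domain, or 0.144%. The word was taken as the longest that all 5 sites share, so its presence at all 5 was fixed by that choice. No share was computed for words chosen in this way from other sites, so these counts are a description. The 19-base sites of the first 2 summits were identical, on opposite strands, and other pairs had 15 to 17 of 19 bases in common. These sites too were picked by the matrix, which raises such counts. The likeness reached beyond the site. When aligned on it without gaps, the 121-base windows of the first 2 had 84 identical bases, and the pairs ranged from 61 to 95. In the reference sequence 52.6% and 84.2% of the bases of the first 2 sites were marked as repeats, and none of the other 3. These 5 sites held at most 1 CpG each.

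Across the domain 23 of 25 summits had a called site, beside the 73.5% in the rest of chromosome 7 given above. The 2 without were the control region summit at 3.67 kb and the weak Igf2 summit. At the 1% threshold the count was 7 of 25, a smaller share than the 44.3% in the rest of chromosome 7. With the matrix built from the higher-scoring training sites it was 19 of 25, a larger share than the 68.3% there. The domain thus stood above the chromosome at the 5% threshold and with that matrix, and below it at the 1% threshold. Of the called sites 11 lay on the plus strand and 12 on the minus strand. The site beyond Tnnt3 and both Mrpl23 sites were plus. The 4 called sites from 1.13 to 3.87 kb upstream of H19 and the 3 between Igf2 and Ins2 were minus. Elsewhere the strands were mixed. The sites in Lsp1 and Gm33148 and the called site in Igf2 were plus, and both sites within Prr33 were minus. Nctc1 and the Ins2 body each held sites on both strands. Of the 22 neighbouring pairs of called sites 13 were in tandem, 5 convergent and 4 divergent. No such share was computed for other peaks, so these counts are a description. The median score of called sites was 14.0 bits in the domain and 15.7 in the rest of chromosome 7.

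**Figure D3:**
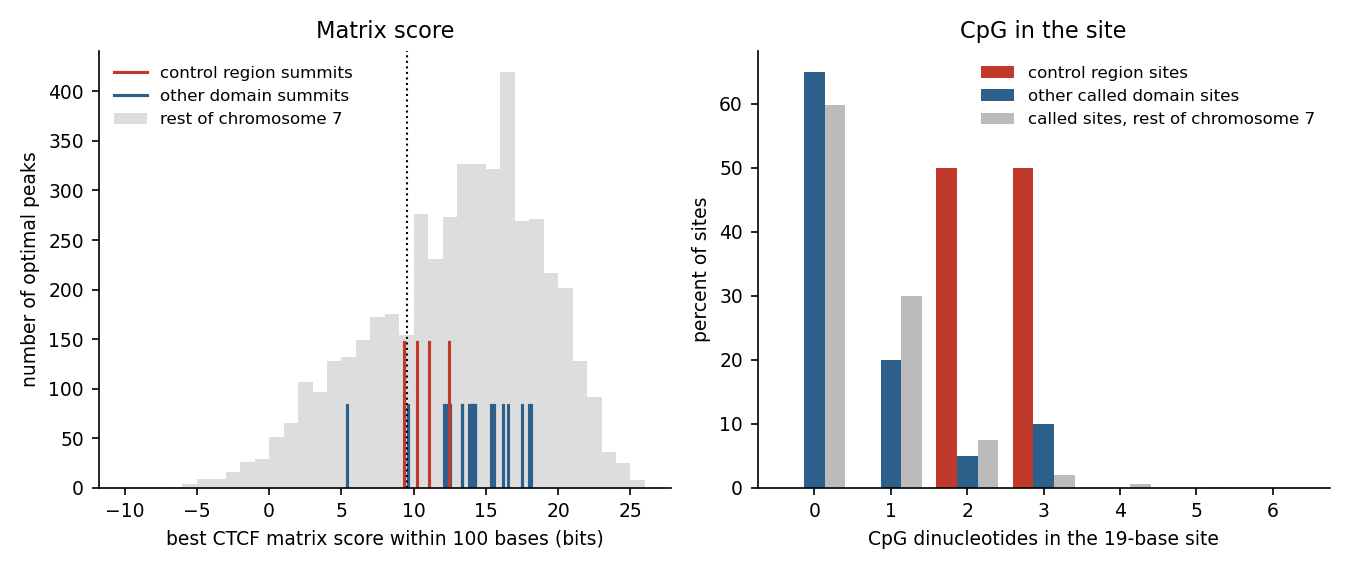
Left, best CTCF matrix score within 100 bases (horizontal axis, bits) of control region summits (red lines), other domain summits (blue lines) and the 4749 optimal peaks in the rest of chromosome 7 (grey bars, number of peaks), with the 9.56-bit threshold dotted. Right, percent of 19-base sites with each number of CpGs, where all 4 control region sites, the uncalled one included, have 2 or 3 and most other sites have none.

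The optimal list was itself selected for ranks that repeat between replicates, so the likeness of the replicates over its summits is a description and no independent check. Of the 25, 24 had a summit within 100 bases in the strongest 73465 peaks of both replicate lists, beside 83.8% of all optimal summits. The exception was the weak Igf2 summit. The median distance between an optimal summit and its match was 2 bases in replicate 1 and 3 bases in replicate 2. The ratio of the larger to the smaller rank had a median of 1.05 and reached 1.35 at the summit of signal 353 upstream of Igf2. Of the pooled summits in the domain 25 of 82 were within 100 bases of an optimal summit, or 30.5%, beside 25.6% of pooled summits on chromosome 7. The other 57 were weak, with a median signal of 6.73 and a highest of 20.8.

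**Figure D4:**
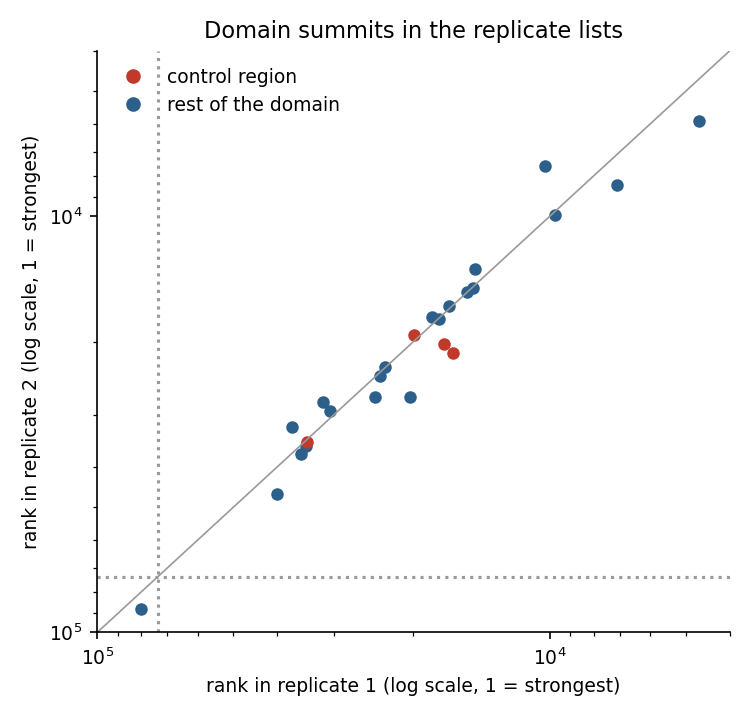
Rank of each of the 25 domain summits in replicate 1 (horizontal, log scale) and replicate 2 (vertical, log scale), with the strongest at the upper right. Control region summits are red, the grey line marks equal ranks and the dotted lines rank 73465, beyond which only the weak Igf2 summit at ranks 80024 and 87801 falls.

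Genes that work with Igf2 or keep imprints were also close to CTCF summits. A list of 30 genes held ligands, receptors, binding proteins, RNA-binding proteins and imprint regulators. It was chosen with earlier results of these data known and includes Igf2 itself, so its counts are a description. An optimal summit lay within 10 kb of a start in 30 of 30, beside 73.0% of 21755 protein-coding genes. Within 2 kb 24 of 30 had one, beside 52.8%. The list genes had a median of 5 annotated starts, against 3 for all protein-coding genes, and the part of this in the counts was not tested. The strongest summits were at Plagl1, an imprinted zinc-finger factor (signal 520), Igfbp5 (492) and Igfbp2 (474), both binding proteins of the growth factor. Igf1r, the receptor that signals for Igf2, had a signal of 435. Igf2r, which clears Igf2 and is itself imprinted, had one of 120.0, and Ctcf one of 356. Igf2 stood at 353 by its upstream summit.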

How the data were processed

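CTCF ChIP-seq peak lists on mm10 were used as deposited: an optimal and a conservative IDR list, a list from pooled alignments, and 1 list for each of 2 replicates. Per the descriptions deposited with the files, replicate and pooled lists were made from alignments plus another file whose role is not described. Both IDR lists were made from those lists. The sources used here do not name the aligner, caller, versions or IDR threshold. The signal, the −log10 q-value and the score of each peak are the authors' values, with normalization not stated. The score was not used in any result. The lists give no read counts, so depth is unknown.

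The summit was the deposited start plus the deposited offset. Annotation was GENCODE M21, with RefSeq starts and sequence from GRCm38.p6, the same coordinates as mm10. A promoter was 1 kb around a start. The CTCF matrix of 19 bases was trained on the 5000 strongest optimal peaks outside chromosome 7, in 6 rounds with a pseudocount of 1, from the best site of each within 100 bases of the summit. Site calling was tested on simulated data. No hypothesis test was run: values are counts, ranks and shares, set beside those of all peaks. The members, lists, windows and short words were chosen with earlier results of these data known. Named genes were the 4 members, every gene overlapping the domain that bears on a summit, and of the list of 30 the 3 with the strongest summit and any with none (there were 0). Igf1r, Igf2r, Ctcf and the weak pooled summits in H19 and beyond Ins2 were named after their values were seen. Python 3.11.15, numpy 2.4.6, pysam 0.24.0, matplotlib 3.10.9 and samtools 1.23.1 were used.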

Additional observations from a re-analysis of the deposited data

How the results depend on the processing

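Of 43 alternatives, 38 left a count within 1.5 times its main value, or the median percentile within the spread between replicates. The control region held 4 summits under every alternative run, including the conservative list, each replicate alone and a window of 1.5 to 5 kb. Control region summits with a called site numbered 0 at the 1% threshold and 1 with the matrix of higher-scoring training sites. Called sites in the domain numbered 7 of 25 at the 1% threshold, below the 44.3% of the rest of chromosome 7. The main threshold put the domain above it, at 23 of 25 beside 73.5%. So did the matrix of higher-scoring training sites, at 19 of 25 beside 68.3%. The median percentile was 49.3 among peaks above the median signal, where the list itself is shorter by construction. Without replicate 1 it was 68.6, outside the spread between replicates, and without replicate 2 it was 72.8, within it. That spread, an SD of 2.96, was taken from these same values. With each replicate left out, the domain held 25 to 27 summits and 22 to 23 called sites. The control region held 4, with 3 called, and 30 of the 30 list genes were near a summit. No paired analysis was possible because there is 1 group. Without read counts, how many reads stand behind weak peaks is unknown.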

Other observations

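Some strong matrix matches in the domain had no peak. At the 1% threshold of 14.7 bits the domain held 11 sites, of which 7 were within 100 bases of an optimal summit. The other 4 had no pooled summit within 100 bases. The best of these scored 16.4 bits and lay 9.71 kb upstream of the H19 start (chr7:142587839-142587857, plus strand). Another scored 15.9 bits, held 2 CpGs and lay within H19, 0.368 kb from its start (chr7:142577766-142577784, plus strand). Both score above all 4 bound sites of the control region. In replicate 2 the strongest domain summit that is not in the optimal list lay within Igf2, beside a start of the antisense gene Igf2os (chr7:142664090-142664405), with a signal of 12.4.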
